A study of Homo sapiens with 30 samples.

Results

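The genes of the nuclear RNA polymerase subunits were taken from a global run-on count table by their symbols, as all names that start with POLR1, POLR2 or POLR3 followed by a letter. The rule found 31 of 26475 genes, of which 5 belong to RNA polymerase I (Pol I), 16 to Pol II and 10 to Pol III. All 31 had counts in at least 1 library with nucleotides, and 29 reached 10 counts over the 9 libraries with nucleotides, the minimum for a test between genotypes. POLR3GL, with 8 counts, and POLR2K, with 3, did not. The study asks how hNABP2 (also called hSSB1, gene NABP2), a single-stranded DNA binding protein, bears on transcription.

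The libraries come from nuclei of HT1080, a human fibrosarcoma cell line, at passages 10 to 15, with no further treatment in any group. In the global run-on assay (GRO-seq), engaged polymerases extend their transcripts with a bromouridine-type label and the labelled RNA is pulled down. The 18 run-on libraries form 6 groups of 3, labelled WT, hNABP2 KO and hNABP1 KO (hNABP1 is the related protein hSSB2), each incubated with nucleotides (NTP) or without them (no NTP). The no NTP libraries give the background of the assay. The report also uses peak lists of 2 ChIP repeats with an anti-hNABP2 antibody, and of DRIP (capture of DNA:RNA hybrids with the S9.6 antibody), with 2 repeats each labelled WT and hNABP2 KO. The sources used here do not give the kind of knockout or the number of clones. The labels speak of 2 independent experiments while 3 run-on repeats are listed, so n counts libraries, and p-values measure only the spread between these libraries. The measurements are of bulk nuclei, in which fewer cells of a type and less RNA per cell cannot be told apart.

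Each nuclear RNA polymerase is built around a large and a second-largest subunit that together form the active site, with an assembly heterodimer, a stalk and a set of small subunits around this core. Pol I makes the large ribosomal RNA precursor, Pol II makes messenger RNA and many small RNAs, and Pol III makes transfer RNA, the small ribosomal RNA and other short transcripts. Several small subunits, among them POLR2E, POLR2F, POLR2H, POLR2K and POLR2L, are shared by all of these enzymes, and POLR1C with POLR1D is shared by Pol I and Pol III. The subunit genes themselves are all transcribed by Pol II.

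The promoters of these genes are shown first, for members whose start sites carried strong anti-hNABP2 peaks (POLR2L, POLR2C and POLR2D, next to POLR3D by -log10 q) or are marked by a feature discussed with the peaks (POLR3E and POLR3K). Each line is the 250 bases upstream of the annotated RefSeq start, on the strand of the gene (GRCh38.p14): POLR2L at chr11:842530-842779 (minus strand), POLR2C at chr16:57462429-57462678 (plus), POLR2D at chr2:127858156-127858405 (minus), POLR3E at chr16:22297159-22297408 (plus) and POLR3K at chr16:53609-53858 (minus). Capitals mark exact matches, on either strand, to the motifs spelled out in the next paragraph.
POLR2L: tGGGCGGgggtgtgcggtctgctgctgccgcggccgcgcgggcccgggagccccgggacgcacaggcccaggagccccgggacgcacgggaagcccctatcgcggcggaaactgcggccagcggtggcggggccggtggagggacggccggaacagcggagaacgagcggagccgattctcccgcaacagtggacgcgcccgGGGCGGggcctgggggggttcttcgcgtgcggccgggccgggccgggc
POLR2C: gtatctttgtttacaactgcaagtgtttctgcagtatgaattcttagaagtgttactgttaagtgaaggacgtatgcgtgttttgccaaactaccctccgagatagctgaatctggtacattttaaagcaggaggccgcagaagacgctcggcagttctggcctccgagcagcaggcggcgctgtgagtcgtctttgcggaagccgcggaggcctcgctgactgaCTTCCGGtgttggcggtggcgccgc
POLR2D: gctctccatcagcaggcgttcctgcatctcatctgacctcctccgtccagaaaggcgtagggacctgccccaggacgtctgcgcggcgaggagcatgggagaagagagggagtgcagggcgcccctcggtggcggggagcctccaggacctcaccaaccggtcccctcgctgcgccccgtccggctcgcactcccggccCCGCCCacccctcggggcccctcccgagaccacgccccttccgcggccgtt
POLR3E: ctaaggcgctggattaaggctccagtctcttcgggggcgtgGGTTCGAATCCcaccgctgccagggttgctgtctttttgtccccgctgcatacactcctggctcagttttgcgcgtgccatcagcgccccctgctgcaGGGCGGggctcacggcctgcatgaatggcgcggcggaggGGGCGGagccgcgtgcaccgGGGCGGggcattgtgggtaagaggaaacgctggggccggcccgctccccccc
POLR3K: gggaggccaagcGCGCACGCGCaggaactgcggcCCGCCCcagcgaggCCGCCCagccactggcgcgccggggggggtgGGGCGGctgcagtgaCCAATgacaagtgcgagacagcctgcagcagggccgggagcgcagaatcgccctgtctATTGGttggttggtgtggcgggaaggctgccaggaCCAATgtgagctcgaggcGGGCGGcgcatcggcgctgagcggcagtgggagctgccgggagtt

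RefSeq windows of this length were found for 21 of the 31 members, 27 windows in all, since some genes have several starts. Those not matched include POLR1E, POLR2G, POLR2I, POLR2J, POLR2J3, POLR2J4, POLR2K, POLR3D and POLR3G. The members' windows were rich in G and C. Their median GC content was 62.8%, against 58.0% over all 35116 windows, and their median number of CpG dinucleotides was 22, against 11. The Sp1-type GC box (GGGCGG) occurred in 21 of the 27 windows (77.8%, against 42.6% of all windows). The ETS-type site CCGGAAG and the NRF1-type site (GCGC, any base, then TGCGC) each occurred in 8 windows (29.6%), against 8.52% and 5.07% of all. CCAAT was found in 5 windows (18.5%, against 32.0%), CACGTG in 2 (7.41%, against 6.34%) and TATAAA in 1 (3.70%, against 10.7%). The YY1-type site (AAGAT directly followed by GGCGGC) was in none of the 27 windows and in 0.248% of all. The GC box, the ETS-type site and the NRF1-type site are GC-rich, as the members' windows are, and a share above that of all windows is a description of letters only. POLR3K combined 4 GC boxes, 1 NRF1-type site and 3 CCAAT boxes, while POLR2C held a single ETS-type site and no GC box. The POLR3E window also held the B box of transfer RNA genes (GGTTC, GAA, any base, then CC), found in 22 of the 35116 windows (0.0626%). The leucine transfer RNA gene TRL-AAG2-4 lies within 1 kb of the POLR3E start.

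The run-on libraries were shallow, which sets how firmly anything can be said of a single subunit gene. Totals ran from 5272 to 19581 counts in the 12 libraries of repeats 1 and 2 and from 19247 to 164357 in the 6 of repeat 3. The NTP library of hNABP1 KO repeat 3 stands apart by its peak list, of 9965 peaks. Calls of members and numbers of members with a run-on peak are given with and without it. Some other values, such as levels per kilobase and sums by polymerase, are given only with it. Markers of mesenchymal cells and fibrosarcoma were present, with 12 of 12 listed genes counted and 1809 to 32702 CPM (counts scaled to the library total) summed over the list in the NTP libraries. Over the same libraries the epithelial list summed to 182 to 2921 CPM (8 genes, led by KRT8), the leukocyte list to 0 to 274 CPM (7 genes, with LYZ at 0) and the neural list to 0 to 511 CPM (6 genes). Their part in the results was not tested. The targeted genes did not verify the labels: NABP2 had 4, 3 and 15 counts in the 3 NTP libraries labelled hNABP2 KO against 4, 0 and 8 in WT, and NABP1 had 0, 1 and 18 in those labelled hNABP1 KO against 1, 0 and 19 in WT. Counts outside a deleted part of a gene would not show a knockout. Directions below therefore refer to the labels.

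Together the 31 subunit genes took about the same share of the counts in the 3 deep NTP libraries. In repeat 3 they held 353 of 164357 counts in WT (0.215%, 95% exact binomial interval 0.193% to 0.238%), 249 of 115923 in hNABP2 KO (0.215%, 0.189% to 0.243%) and 262 of 115528 in hNABP1 KO (0.227%, 0.200% to 0.256%). The 3 intervals overlap; they cover counting error only. In repeats 1 and 2 with NTP the share ran from 0.122% to 0.340%, on 8 to 61 member counts a library. Of the 1017 member counts in the NTP libraries, 85.0% came from repeat 3. In the 12 libraries of repeats 1 and 2, 27 of the 31 members never exceeded 3 counts, and 5 were at 0 in all of them. The members gave 367 counts in the 9 no NTP libraries. The heat map of counts shows the deep NTP columns as the place where most counts lie.

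**Figure D1:**
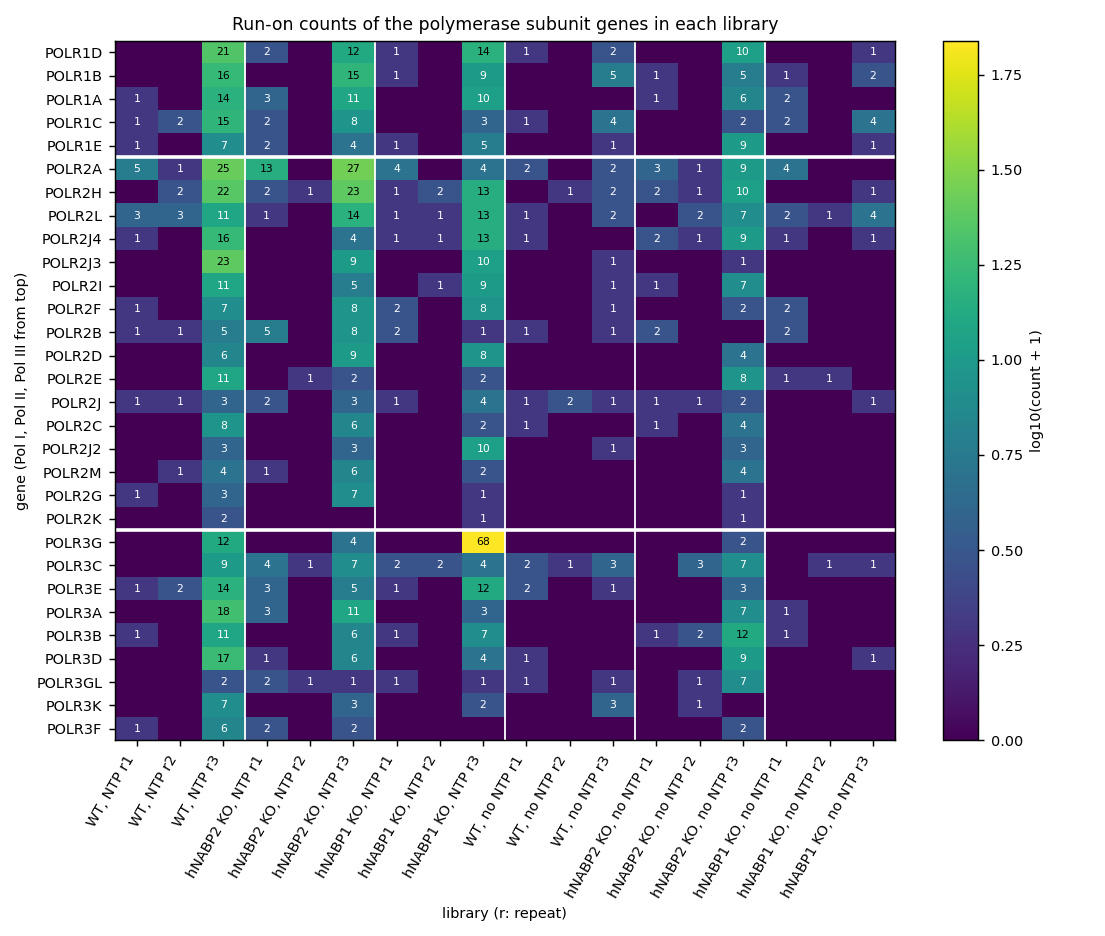
Counts of subunit genes (rows, Pol I, Pol II and Pol III from top to bottom) in the 18 run-on libraries (columns, by group and repeat); colour is log10(count + 1), printed numbers are counts, and empty cells are 0. POLR3G has 68 counts in 1 library, NTP repeat 3 of hNABP1 KO, and at most 12 in any other; POLR2A and POLR2H have 22 to 27 counts in repeat 3 of WT and of hNABP2 KO.

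Among the Pol I genes, POLR1D, part of the assembly heterodimer shared with Pol III, had the most counts: 0, 0 and 21 in WT repeats 1 to 3 with NTP, 2, 0 and 12 in hNABP2 KO and 1, 0 and 14 in hNABP1 KO. POLR1B, the second-largest subunit, had 0, 0 and 16 in WT, 0, 0 and 15 in hNABP2 KO and 1, 0 and 9 in hNABP1 KO. POLR1A, the largest subunit, had 1, 0 and 14, then 3, 0 and 11, then 0, 0 and 10 in the same order. In all of these genes the counts came almost wholly from repeat 3 and the groups overlapped. POLR1C, the heterodimer partner of POLR1D, and POLR1E, a Pol I-specific subunit, summed to 31 and 20 counts over the 9 libraries.

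Among the Pol II genes, POLR2A, the largest subunit, whose C-terminal domain is phosphorylated during transcription, had 5, 1 and 25 counts in WT, 13, 0 and 27 in hNABP2 KO and 4, 0 and 4 in hNABP1 KO. The 4 counts in hNABP1 KO repeat 3 were low beside the other deep libraries, but repeat 1 of that group held 4 counts too, and as CPM the groups overlapped. POLR2H, a small subunit shared by the 3 enzymes, had 0, 2 and 22 in WT, 2, 1 and 23 in hNABP2 KO and 1, 2 and 13 in hNABP1 KO. POLR2L, another shared small subunit, had 3, 3 and 11, then 1, 0 and 14, then 1, 1 and 13. As CPM the groups overlapped for both genes.

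POLR2J3, a copy of the assembly subunit POLR2J, had 0, 0 and 23 counts in WT, 0, 0 and 9 in hNABP2 KO and 0, 0 and 10 in hNABP1 KO. POLR2J4, annotated as a transcribed pseudogene, had 1, 0 and 16, then 0, 0 and 4, then 1, 1 and 13. POLR2J, POLR2J2, POLR2J3 and POLR2J4 are near-identical copies, so reads could be shared or split among them, and their values are uncertain. The library kit kept strand, but the sources used here do not give the strand setting of the counting, so a subunit gene and a gene overlapping it cannot be told apart either. The other 11 Pol II members, POLR2B, POLR2C, POLR2D, POLR2E, POLR2F, POLR2G, POLR2I, POLR2J, POLR2J2, POLR2K and POLR2M, had 3 to 26 counts each over the 9 libraries. They include the second-largest subunit (POLR2B), the partner of POLR2J in the assembly heterodimer (POLR2C), the stalk (POLR2D and POLR2G) and POLR2M, a Pol II-associated protein also known as Gdown1.

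Among the Pol III genes, POLR3G, one of a pair of alternative subunits and known for its expression in undifferentiated and transformed cells, had the most uneven counts. It had 0, 0 and 12 in WT, 0, 0 and 4 in hNABP2 KO and 0, 0 and 68 in hNABP1 KO, and 2 in all no NTP libraries together, both in hNABP2 KO repeat 3. The 68 counts of 1 library make up most of its 84. POLR3E, a subunit of the Pol III-specific subcomplex that resembles an initiation factor, had 1, 2 and 14, then 3, 0 and 5, then 1, 0 and 12. POLR3A, the largest subunit, had 0, 0 and 18, then 3, 0 and 11, then 0, 0 and 3. POLR3G stood out by 1 library, while POLR3E and POLR3A had most of their counts in the deep libraries and their groups overlapped as CPM. POLR3B, POLR3C, POLR3D, POLR3F, POLR3GL and POLR3K had 8 to 29 counts each. They include the second-largest subunit (POLR3B), POLR3GL, the alternative to POLR3G, and POLR3K, a small subunit with a part in termination.

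Levels between genes can be compared only per length, here as the mean CPM per kilobase of gene over the 3 deep NTP libraries, with introns included in the length. On this scale the short genes of small subunits led, with POLR2I at 53.7, POLR2L at 35.6 and POLR2H at 21.5. POLR2J3 lay at 18.0 and POLR2J2 at 7.75. The largest subunits were lower, at 4.6 for POLR2A, 1.41 for POLR3A and 1.04 for POLR1A. The lowest value was 0.39, for POLR3B, the longest gene of the set at 152451 bp. POLR2I rests on 25 counts in those 3 libraries (11, 5 and 9), so neighbouring places in this order are not separated. The sources used here do not name the counter, so whether introns were counted is not known. The order runs from POLR2I, at 1167 bp, to the longest gene, so it may reflect length. It does not show that genes of small subunits are transcribed more.

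Summed by polymerase, the genotypes overlapped in every class, as the plot of summed CPM shows. With NTP, the 5 Pol I genes summed to 345 ± 97.0 CPM in WT, 297 ± 258 in hNABP2 KO and 208 ± 185 in hNABP1 KO (mean ± SD, n = 3 libraries). The 16 Pol II genes summed to 1196 ± 294, 895 ± 513 and 873 ± 210 CPM, and the 10 Pol III genes to 1059 ± 418, 967 ± 437 and 942 ± 130, in the same order. The means of the knockouts were below WT in each class, by less than the largest SD among the groups, and the order depended on the scaling. With TMM-normalized CPM the Pol III sums were 1006 in WT, 1089 in hNABP2 KO and 1227 in hNABP1 KO, and the Pol I sum of hNABP2 KO, 413, was above the 384 of WT. Without NTP the sums were 280 ± 317, 198 ± 202 and 361 ± 374 for Pol I, 651 ± 97.9, 920 ± 212 and 800 ± 860 for Pol II, and 1154 ± 279, 1517 ± 971 and 1092 ± 43.3 for Pol III. Set against the no NTP background of the same genotype, the sums overlapped in 7 of the 9 pairs of class and genotype. In WT the Pol II sums were higher with NTP (973, 1085 and 1530 CPM) than without (569, 623 and 759). In hNABP1 KO the Pol III sums were lower with NTP (794 to 1039) than without (1046 to 1131). This order depended on the scaling too. With TMM-normalized CPM the mean with NTP, 1227, was above the mean without. These sums were not tested.

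**Figure D2:**
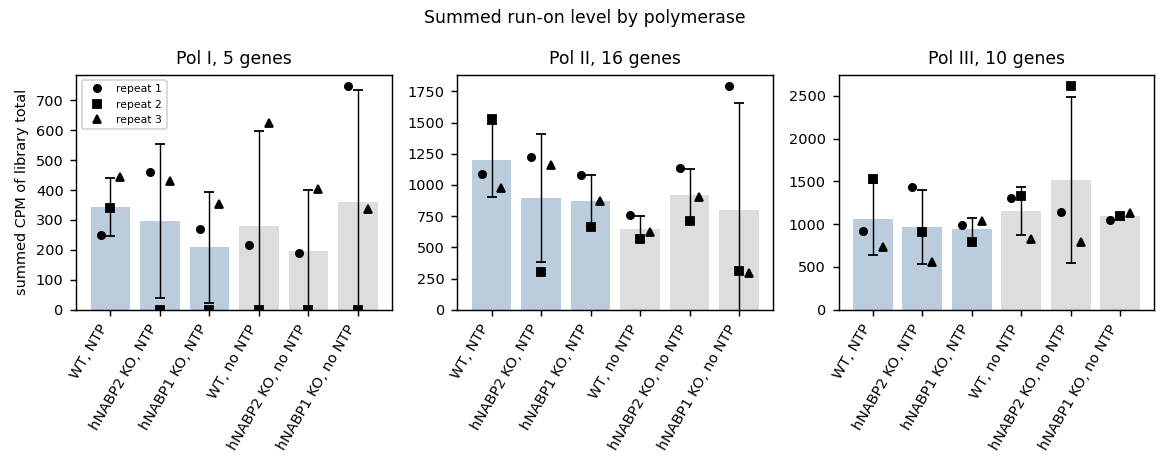
Summed CPM of the library total for the genes of each polymerase (one panel each) in the 6 run-on groups; bars are means from 0, error bars are SD (n = 3 libraries; not drawn below 0), and points are the single libraries by repeat. With NTP the Pol II sums run from 973 to 1530 in WT, 304 to 1226 in hNABP2 KO and 662 to 1082 in hNABP1 KO, and the groups overlap.

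The question of whether loss of hNABP2 or hNABP1 alters transcription of these genes was put to edgeR's quasi-likelihood test over all 13447 genes with 10 or more counts, with Benjamini-Hochberg adjustment. It called 0 of the 29 subunit genes tested for hNABP2 KO against WT, and 0 genes in all (0%). For hNABP1 KO against WT it likewise called 0 of 29 members and 0 of all genes (0%), and for hNABP2 KO against hNABP1 KO 0 of 29 and 0 of all (0%). At an unadjusted p under 0.05 it gave 41, 163 and 248 genes, with 0, 1 and 1 members among them. Each is below a share of 0.05 of the genes tested, the share expected if no gene differed. The test was thus conservative here, and 0 calls do not show that nothing changed. DESeq2 and limma voom also called 0 genes in these 3 comparisons. The 2 knockouts were compared with the same WT libraries.

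In the main edgeR fit, with all libraries, the members' median fold changes lay within 0.1 of those of all genes on the log2 scale. Other fits of all libraries, given at the end, set them further apart for hNABP1 KO against WT. For hNABP2 KO against WT, 14 members lay above 0 and 15 below, with a median log2 fold change of -0.01, against 0.07 over all genes. For hNABP1 KO against WT, 13 lay above and 16 below, with a median of -0.12, against -0.03. For hNABP2 KO against hNABP1 KO the medians were 0.13 and 0.12. By class, the medians for hNABP2 KO against WT were 0.24 for Pol I, 0.04 for Pol II and -0.37 for Pol III. For hNABP1 KO against WT they were 0.26, -0.25 and -0.25. These medians rest on the repeat 3 libraries, and all genes moved with the members. For hNABP2 KO against WT the members' median was -1.05 without hNABP2 KO repeat 3 (all genes -1.22) and 0.89 without WT repeat 3 (all genes 2.02). For hNABP1 KO against WT it was -1.44 without hNABP1 KO repeat 3 (all genes -3.09) and 1.13 without WT repeat 3 (all genes 2.22).

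The members with many counts show how wide the errors were. POLR2A differed by 0.74 on the log2 scale between hNABP2 KO and WT (SE 1.24) and by -0.90 between hNABP1 KO and WT (SE 1.33). In the same order POLR2H differed by 0.46 (SE 1.29) and 0.28 (SE 1.32), POLR1D by 0.24 (SE 1.44) and 0.50 (SE 1.41), and POLR2L by -0.79 (SE 1.37) and -0.31 (SE 1.37). With edgeR's Benjamini-Hochberg adjusted p at 0.999 or above for each, none of these differences exceeded the spread between libraries. An SE of this size means that changes of several fold were not detectable at this depth. The plot of fold changes shows the same for the other members drawn.

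**Figure D3:**
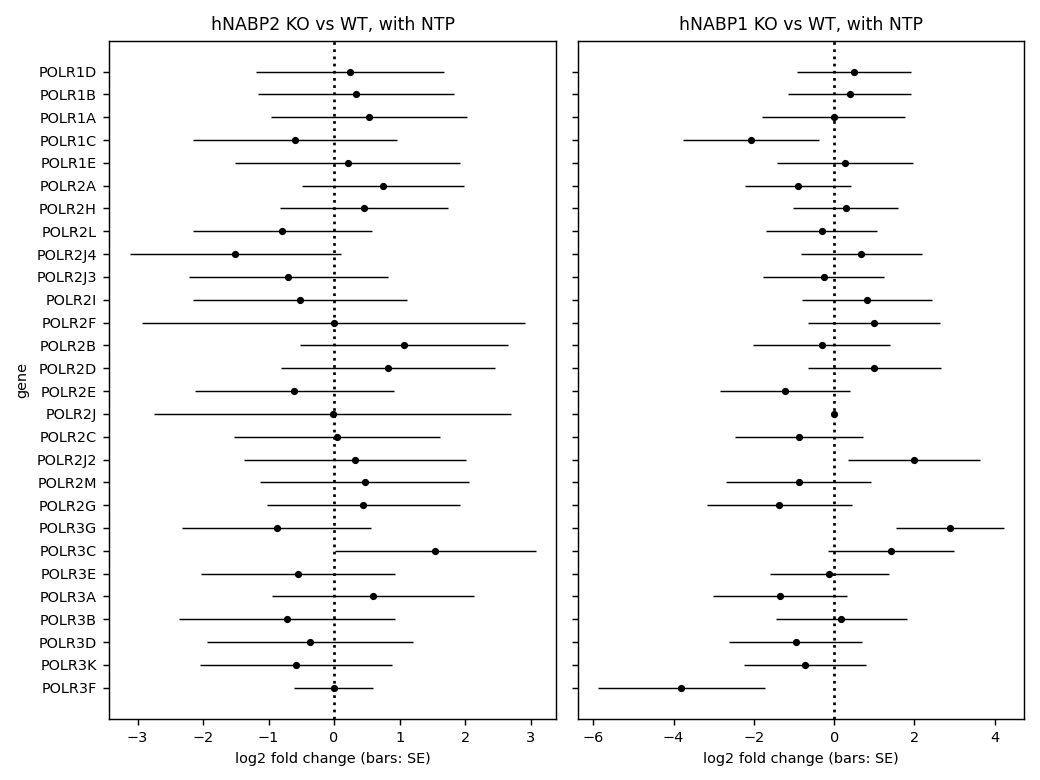
Log2 fold changes (points) with their SE (bars) from edgeR for tested subunit genes, hNABP2 KO against WT on the left and hNABP1 KO against WT on the right, both with NTP. The SE is the fold change divided by the square root of the F statistic, so the short bar of POLR2J on the right, where the fold change is near 0, cannot be read as precision; POLR3F has 0 counts in hNABP1 KO, so its fitted value is no bound. POLR3G lies at 2.89 on the right and -0.88 on the left.

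POLR3G was the one member with a call in any fit, and the call came with the repeat number as a block. Without the block it differed by -0.88 (SE 1.44) for hNABP2 KO against WT, by 2.89 (SE 1.34) for hNABP1 KO against WT (edgeR adjusted p = 0.999) and by -3.77 (SE 1.45) for hNABP2 KO against hNABP1 KO (edgeR adjusted p = 1.0). Libraries with the same repeat number deviated together, so a fit with the repeat as a block was also made. It called 0 genes for hNABP2 KO against WT (0%), 16 for hNABP1 KO against WT (0.119% of the genes tested, 0 members) and 19 for hNABP2 KO against hNABP1 KO (0.141%, 1 member). That member was POLR3G, lower in hNABP2 KO by a log2 fold change of -4.29 (SE 1.07, edgeR adjusted p = 0.0471). Against WT it was higher in hNABP1 KO by 3.36 (SE 0.95, edgeR adjusted p = 0.103). Without hNABP1 KO repeat 3, POLR3G had 0 counts in hNABP1 KO with NTP, and the fit with the block called 0 genes in all 3 comparisons. In 1 of 3 repeats was POLR3G higher in hNABP1 KO than in WT, the other two repeats being at 0 in both.

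Groups whose CPM did not overlap were about as frequent among the members as among all genes. For hNABP2 KO against WT it was 1 of 29 members, POLR3C (2.07% of all genes), with 0, 0 and 9 counts in WT and 4, 1 and 7 in hNABP2 KO. The 1 count in hNABP2 KO repeat 2 equals 152 CPM. In repeat 3 POLR3C was close, at 54.8 CPM in WT and 60.4 in hNABP2 KO. For hNABP1 KO against WT it was POLR1C, lower in the knockout (2.03% of all genes), with 1, 2 and 15 counts in WT and 0, 0 and 3 in hNABP1 KO. For hNABP2 KO against hNABP1 KO it was POLR2J4, lower in hNABP2 KO (2.71% of all genes). POLR3C, a Pol III-specific subunit, and POLR1C are named because of these values, and edgeR called neither.

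Adding NTP is meant to separate elongating transcription from background. In the main edgeR fit, with all libraries, more of the subunit genes lay above 0 than below in each genotype, as over all genes. In WT, 23 of 30 tested members lay above 0 and 7 below, with a median log2 fold change of 0.88 for NTP against no NTP, against 0.93 over all 14907 genes. In hNABP2 KO, 18 lay above and 12 below, with a median of 0.30 against 0.17. In hNABP1 KO, 22 lay above, 7 below and 1 at 0, with a median of 1.25 against 1.70. Leaving out 1 library moved these medians widely, to 0.03 without NTP repeat 3 and 2.60 without no NTP repeat 3 in WT (all genes -0.0015 and 3.02). In hNABP2 KO the same libraries gave -0.47 and 1.95 (all genes -1.30 and 2.74). In hNABP1 KO the median was 0 without NTP repeat 3 (all genes 0) and 2.37 without no NTP repeat 1 (all genes 2.02). edgeR called 0 members and 0 of all genes in each of the 3 comparisons (0%), and DESeq2 and limma voom called 0 as well. At an unadjusted p under 0.05 edgeR gave 163, 359 and 927 genes, with 0, 0 and 2 members. With the repeat as a block it called 1 gene in hNABP1 KO (0.00671%), not a member. Groups did not overlap for 1 of 30 members in WT (POLR3C, lower with NTP, 2.1% of all genes) and 2 in hNABP2 KO (POLR2J4 and POLR3B, lower, 2.25%). In hNABP1 KO it was 3 members, among them POLR2H, higher, and POLR2L, lower (2.6%). Whether the effect of NTP differs between genotypes was not tested.

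Of 65 listed companion genes, 61 had enough counts for the genotype comparisons and edgeR called 0, with and without the repeat block. The most counted were CD3EAP among further subunits (77 counts over the 9 NTP libraries), TAF1B, a subunit of the Pol I promoter selectivity factor (75), and GTF2A1, a subunit of the Pol II initiation factor TFIIA (73). RUVBL1, an ATPase with a part in polymerase assembly, had 45, and MAF1, the repressor of Pol III, had 85. The genes that Pol I and Pol III transcribe were counted far more, led by the ribosomal RNA precursor RNA45S5 with 7866 counts. GTF2H2, a TFIIH subunit, was at 0 in all 18 libraries.

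The ChIP repeats differed sharply in how many subunit genes their hNABP2 promoter peaks named, and they differed over all genes too. In repeat 1, 16 of the 31 members (51.6%) had a peak annotated within 1 kb of a start, against 27.1% of all genes. Among genes with 10 or more run-on counts the figures were 16 of 29 members (55.2%) and 49.9% of all genes, so the share of members was close to that of other counted genes. The 16 comprised 2 of 5 Pol I, 8 of 16 Pol II and 6 of 10 Pol III genes. In repeat 2, 0 of 31 members were named by a promoter peak, against 8.74% of all genes and 16% of genes with 10 or more counts. No member was thus named in both repeats, against 7.46% of all genes. Repeat 2 held 2832 peaks and repeat 1 held 10055, so the lists differ in size.

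The strongest repeat 1 peak at a member was at POLR3D, a Pol III-specific subunit, at chr8:22244609-22245574 (hg38). Its summit had a fold of 8.48 over local background and a -log10 q of 103, rank 91 of 10055 annotated peaks; these peak values are the authors'. The microRNA gene MIR320A lies within 1 kb of it. POLR2L followed, at chr11:842273-843056, with a fold of 5.56 and a -log10 q of 67.1 (rank 244). It spanned the POLR2L start, with its summit 232 bp upstream, and TSPAN4 lies within 1 kb of the peak. POLR2C, at chr16:57462544-57462891, had a fold of 4.71 and a -log10 q of 53.5 (rank 413). POLR2D, at chr2:127857892-127858335, had 4.25 and 39.7 (rank 780). POLR2I, a small Pol II subunit at chr19:36114822-36115000, had 3.69 and 23.2 (rank 2179). The peaks of POLR2L, POLR2C and POLR2D reach into the promoter windows printed above.

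Other members with a repeat 1 peak were POLR1B, POLR1D, POLR2E, POLR2H, POLR2J, POLR2M, POLR3C, POLR3E, POLR3G and POLR3K, with folds of 2.11 to 5.40 at their strongest peak. Over the members' 17 peaks (POLR3G had 2) the median fold was 3.21 and the median -log10 q 16.0, against 3.16 and 12.8 over all 8981 promoter peaks. The members' summits lay at a median of 78 bp from the start of the transcript that the annotation assigned to the peak. They were at most 366 bp from that start, and within 100 bp for 10 of the 16. Only peaks annotated within 1 kb of a start were taken, so this closeness follows partly from the choice. From the nearer end of the RefSeq gene, the summits at POLR2H and POLR1D lay 1316 and 1104 bp away. Many of these starts have another gene within 1 kb, among them TBCB at POLR2I, RNF115 at POLR3C, SNRNP25 at POLR3K, MBLAC2 at POLR3G and TTL at POLR1B. A peak in such a place cannot be assigned to either gene by position. The peak at POLR3E, at chr16:22297285-22297625, lay beside the transfer RNA gene TRL-AAG2-4 that carries the B box in the printed window.

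**Figure D4:**
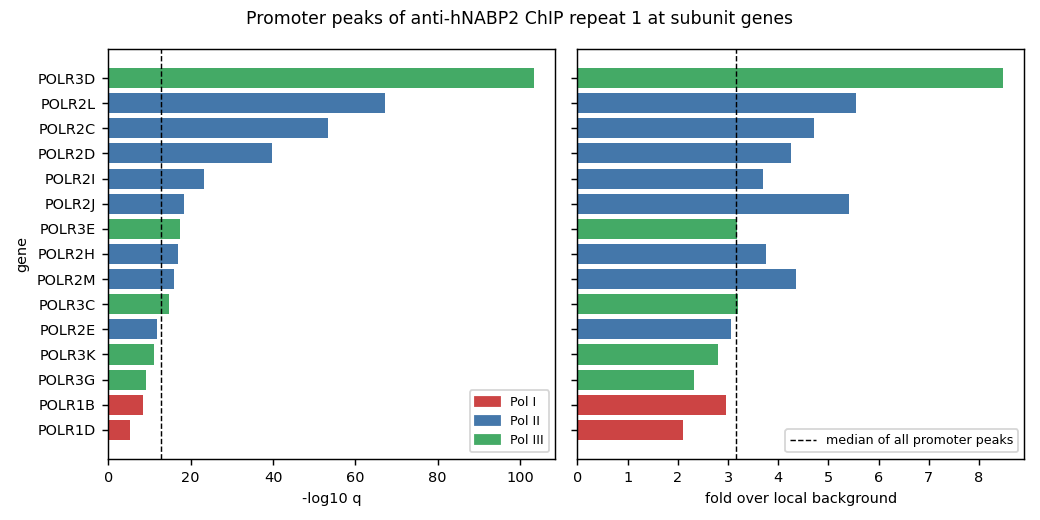
Strongest promoter peak of anti-hNABP2 ChIP repeat 1 at subunit genes that have one: -log10 q (left) and fold over local background at the summit (right), coloured by polymerase, with the median of all promoter peaks as a dashed line. POLR3D leads with 8.48 and 103; the 2 Pol I genes, POLR1B and POLR1D, lie below both medians.

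The 15 members without a named peak were POLR1A, POLR1C, POLR1E, POLR2A, POLR2B, POLR2F, POLR2G, POLR2J2, POLR2J3, POLR2J4, POLR2K, POLR3A, POLR3B, POLR3F and POLR3GL. The largest and second-largest subunits were all among them except POLR1B. Genes with and without a peak had similar counts over the NTP libraries, with medians of 28.5 and 26, but differed in length, with medians of 10156.5 and 30251 bp. Per kilobase, the median level in the deep libraries was 4.20 CPM with a peak and 1.37 without.

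Assignment by name hid some peaks. Taken by position, within 1 kb of either end of the RefSeq gene, 17 members had a repeat 1 peak (33% of all genes, or 37.1% with peaks inside genes) and 3 a repeat 2 peak (9.98% of all genes), and the same 3 had both. The member added in repeat 1 was POLR2A, whose peak at chr17:7484192-7484999, with a fold of 4.35 and a -log10 q of 24.2, was assigned to the neighbouring gene ZBTB4. The repeat 2 peak near POLR2L, at chr11:842597-843040, had a fold of 3.43 and a -log10 q of 3.69, was assigned to TSPAN4 and overlapped the repeat 1 peak. The repeat 2 peaks near POLR2H (chr3:184361572-184361829, fold 7.10, -log10 q 8.15) and POLR1D (chr13:27620126-27620429, fold 5.79, -log10 q 3.52) were assigned to CLCN2 and LNX2. Their summits lay at -1345 and -1522 bp from the transcript starts that the repeat 1 peaks mark. From the nearer end of the RefSeq gene they were 53 and 486 bp away. The POLR2H peak of repeat 2 overlapped a repeat 1 peak at -1578 to -1057 bp, with a fold of 2.71 and a -log10 q of 13.1. Both of these peaks spanned the RefSeq start of POLR2H. The POLR2L peak of repeat 2 covered -511 to -68 bp and did not reach the POLR2L start. POLR2L and POLR2H thus had peaks near them that overlapped between the repeats, in places where position does not assign them to one gene.

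Companion genes were counted in the same way. In ChIP repeat 1, with 27.1% of all genes and 49.9% of genes with 10 or more counts as background, promoter peaks were annotated at 3 of 5 further subunits, 4 of 9 Pol I factors, 7 of 18 Pol II general factors, 6 of 10 Pol II assembly factors, 10 of 16 Pol III factors and 3 of 7 Pol I and Pol III products. In repeat 2, with 8.74% and 16% as background, the counts were 0, 1, 0, 0, 3 and 0. Named in both repeats, as were 7.46% of all genes, were UBTF, the architectural factor of Pol I genes, and SNAPC4, a subunit of the complex that starts small nuclear RNA genes.

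Peaks called on the run-on libraries themselves lay at subunit genes mainly in 1 library. The other 8 NTP libraries held 94 to 518 peaks, against the 9965 of hNABP1 KO repeat 3. Shares of all genes here include genes with few or no counts. In hNABP1 KO repeat 3, 17 of 31 members had a peak in the gene or within 1 kb (54.8%, against 31.1% of all genes). In the other 8 libraries it was 1 member in WT repeat 3 (POLR2J4, 1.21% of all genes), 1 in hNABP1 KO repeat 1 (POLR3E, 1.83%), 1 in hNABP1 KO repeat 2 (POLR3A, 1.63%) and 0 in the rest, where 0.299% and 0.804% of all genes had one in WT repeats 1 and 2 and 0.716%, 1.28% and 0.261% in the hNABP2 KO repeats. Over all 9 libraries 18 members had a peak, and 3 without hNABP1 KO repeat 3.

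The strongest of these peaks was at POLR3G, at chr5:90474294-90474933, with a fold of 49.9 and a -log10 q of 129, rank 93 of 9965 by fold. Its summit lay 41 bp upstream of the start of the transcript named by the ChIP peak, and it overlapped a repeat 1 ChIP peak. It comes from the library that gave POLR3G its 68 counts, so the peak and the counts are not independent of each other. POLR3K came next with a fold of 21.3, and POLR2J2, POLR3B, POLR2J4, POLR2L and POLR2D followed at 18.9, 14.2, 12.5, 11.8 and 11.6. These were named by their rank after the values were seen. Of the 18 member peaks in this library, 17 had their summit within 1 kb of a gene end. A ChIP repeat 1 peak was overlapped by 11 of the 18, 61.1% beside 47.1% of all peaks of the library. The 47.1% covers peaks wherever they lie, so these sets are unlike and the shares are not matched. Of the 16 members with a ChIP repeat 1 peak by name, 10 had a run-on peak (62.5%, against 61.0% of all such genes). Of the 15 without, it was 7 (46.7%, against 18.4%). The 18.4% includes genes with few or no run-on counts, while most members had 10 or more, so these shares are not matched. The 15 include POLR2A, whose run-on peak overlapped the ChIP repeat 1 peak assigned to ZBTB4.

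**Figure D5:**
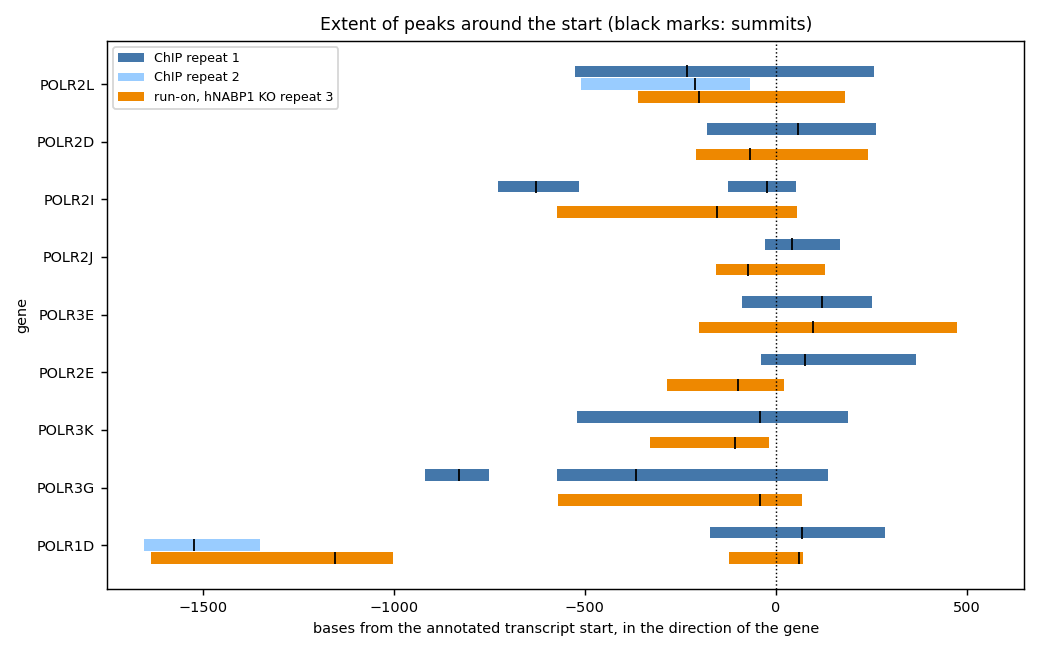
Extent of peaks at subunit genes with both a ChIP repeat 1 promoter peak and a run-on peak in hNABP1 KO repeat 3, in bases from the annotated transcript start in the direction of the gene; bars span the peaks and black marks are summits. At POLR2L the summits of ChIP repeat 1, ChIP repeat 2 and the run-on library lie 232, 211 and 201 bp upstream.

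DNA:RNA hybrid peaks were nearly absent from the subunit genes. The DRIP annotations named 1 member in 4 libraries: POLR2M in hNABP2 KO repeat 1 (0.034% of all genes named in that library), at chr15:57779139-57779354, with a fold of 5.41 and a -log10 q of 2.00. That peak lies 33032 bp from the start, in an intron of a transcript of the locus. In the other 3 libraries no member was named, against 0.344% and 0.257% of all genes in the WT repeats and 0.287% in hNABP2 KO repeat 2. By position, no DRIP peak lay in or within 1 kb of any member gene, against 0.404% and 0.316% of all genes in WT and 0.0421% and 0.387% in hNABP2 KO. The DRIP lists were short, with 13 to 173 peaks, so few genes of any kind were named.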

How the data were processed

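HT1080 nuclei gave the 18 run-on libraries analysed, 3 for each of 6 groups taken from the labels. The deposited count table holds raw counts per gene symbol that the authors had not normalized. Each deposited peak list gives a fold ratio over local background and −log10 p- and q-values in the layout that MACS2 writes. The deposited annotation tables add a gene name and a distance to its start. Per the submitters' processing notes, cutadapt 1.18, Bowtie2 2.3.5, SAMtools, MACS2 2.2.1 and hg38 were used, with no order or settings given. The counter, its strand setting and its treatment of shared reads, which bear on the POLR2J copies, are named in none of the sources used here.

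Genes with 10 or more summed counts were tested with edgeR 4.0.16 (R 4.3.3) by its quasi-likelihood F test with TMM. Benjamini-Hochberg adjustment ran over all genes tested, with a threshold of 0.05. The code was first run on simulated counts that held no repeat effect, unlike these libraries, so that run does not measure power here. Genotypes were compared in 1 model of the 9 NTP libraries and the effect of NTP in 1 model of all 18. CPM were computed from library totals (5272 to 164357), and gene lengths come from RefSeq, in which all 31 symbols matched. Alternatives were DESeq2 1.42.0, limma 3.58.1 (voom), other size factors and filters, leaving out libraries, and the repeat number as a block. Same-numbered libraries deviated together, with r of 0.284 to 0.524 in 9 pairs over 13447 genes. The 18 pairs of different numbers had r of -0.339 to 0.0226. The numbers were therefore taken to pair the samples, a reading from the data. Deviations were from group means, so a high r in same-numbered pairs lowers r in the others. The repeat 3 libraries with NTP also share a greater depth, whose part was not tested. A peak was counted at a gene with an overlap of 1 bp or more with the RefSeq interval widened by 1 kb, or by its deposited gene name.

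Counts were written out for the 12 members with the most counts over the NTP libraries, fold changes for the top 6 and any member called, and positions for the 5 strongest ChIP repeat 1 peaks. Others are named as chosen after their values were seen. The members and lists were chosen with earlier results of these data known. One member gene, counted in the totals and shares, is not reported here by itself. Values of the IgG and RNase H libraries were not used here.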

Additional observations from a re-analysis of the deposited data

How the results depend on the processing

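At 5272 to 19581 counts in the libraries of repeats 1 and 2, most subunit genes had 0 to 3 counts, so most fold changes rest on repeat 3. With another filter, edgeR's filterByExpr, 0 members were left for the genotype comparisons and 1 for the NTP comparisons, so no member values exist for the genotype comparisons. Other scalings moved the medians. With DESeq2's size factors, members and all genes were both at -0.13 for hNABP2 KO against WT. For hNABP1 KO against WT, library totals put the members at -0.60 and all genes at -0.40. The replicate block put them at 0.18 and -0.05 in that comparison.

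Of 530 recomputed values, 498 kept their direction and their side of the threshold, or stayed within the spread. Many of these are counts of calls that were 0 before and after, at a depth where changes of several fold were not detectable. Medians of the members counted as kept if they moved by less than the median SE of a single member. For hNABP2 KO against WT, 0.89 without WT repeat 3 thus counted as kept beside -0.01. The 498 is therefore no measure of robustness. With the replicate block, edgeR called 16 genes for hNABP1 KO against WT and 19 for hNABP2 KO against hNABP1 KO, 1 of them a member (POLR3G, log2 fold change -4.29), and 1 gene for NTP in hNABP1 KO; it changed no other call. DESeq2's size factors in edgeR gave 1 gene for NTP in WT and 3 in hNABP1 KO, and the block without hNABP1 KO repeat 3, added after seeing the data, gave 1 for NTP in WT. Leaving out single libraries called 0 genes in every comparison. The cause was not tested.

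Signs turned as follows, on the log2 scale. For hNABP2 KO against WT, POLR1D was -0.0674 with DESeq2's size factors, -0.0370 with DESeq2 and -0.54 to 4.50 over the fits that leave out 1 library. Over those fits POLR3G ranged from -3.89 to 2.83, POLR2A from -0.11 to 1.18 and POLR2H from -0.46 to 1.10. For hNABP1 KO against WT, POLR2L was 0.17 with the block, and POLR3G was -0.46 with the block and without hNABP1 KO repeat 3, where it has 0 counts. Without single libraries POLR3G ranged from -3.88 to 6.55, POLR2H from -0.31 to 0.95 and POLR1D from -1.19 to 4.77. POLR3G in hNABP2 KO against hNABP1 KO ranged from -6.82 to 2.98.

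The summed CPM with TMM were 1097 for Pol II and 1227 for Pol III in hNABP1 KO with NTP, and 1016 for Pol III without NTP. Members with a ChIP promoter peak numbered 0 in both repeats, 0 to 16 in single repeats, and 3 by position, an alternative chosen after seeing the data. Members with a run-on peak numbered 18, and 3 without hNABP1 KO repeat 3. Members with a DRIP peak numbered 0 to 1 without single libraries, and 0 without hNABP2 KO repeat 1; these 2 alternatives were also added after seeing the data.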
